A study of Mus musculus with 8 samples.

Results

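The comparison described here set RAW264.7 cells given LPS together with antibodies against CD36 against RAW264.7 cells given LPS alone. RAW264.7 is a mouse macrophage-like line, derived from a tumour induced by Abelson murine leukaemia virus, and the labels give its genotype as WT in all 8 libraries. The members were 4 libraries, 2 with LPS + anti-CD36 and 2 with LPS, and the genes that reached 1 FPKM in 2 or more of the series' 8 libraries, which were 10289 of 10639. FPKM is the number of fragments per kilobase of transcript, scaled to the reads of the library. The LPS libraries came from cells given 50 ng/mL for 12 h. The labels of the LPS + anti-CD36 libraries give 12 h and no doses. The other libraries were 2 from cells given anti-CD36 at a dilution of 1 in 100 for 12 h and 2 from untreated cells, for which no time is given. No group given here had an antibody of another specificity, so the binding of CD36 and the presence of antibody cannot be told apart. The labels do not say that replicates were separate cultures, so the spread behind each p-value is that of the libraries and may be technical.

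LPS is a component of the outer membrane of Gram-negative bacteria. Macrophages sense it through CD14, MD-2 and TLR4, and the receptor activates NF-kB, MAP kinases and, through TRIF, interferon regulatory factors. CD36 is a membrane scavenger receptor that binds oxidized lipoproteins and long-chain fatty acids and can act with toll-like receptors. Macrophages activated by LPS raise glycolysis, and the hypoxia-inducible factor HIF-1 takes part in that response. HIF-1 binds the letters ACGTG in DNA and raises glycolytic enzymes, mitophagy receptors and enzymes of collagen and disulfide formation.

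Depth, recovered from the steps that single reads leave in the values of short RNAs, was 53500000 to 61100000 reads with LPS + anti-CD36 and 61400000 to 63600000 with LPS. At the depths of the 8 libraries, 3 reads in a transcript of 2000 bp equal an FPKM of 0.0209 to 0.0313, a floor that covers counting error only. Replicates correlated across genes at 0.994 with LPS + anti-CD36 and 0.997 with LPS (Pearson's r of log2 values; genes are not independent replicates), against 0.984 to 0.988 between libraries of the 2 groups. The anti-CD36 libraries stood farther apart, at 0.966, and the mitochondrial share of all FPKM was 15.7% in their replicate 1 and 6.59% in replicate 2. That share was 3.28% and 4.47% with LPS + anti-CD36, and 4.10% and 3.94% with LPS. The macrophage genes Spi1, a lineage transcription factor, and Csf1r, the receptor for the growth factor CSF-1, were present at means of 74.5 and 76.3 FPKM with LPS + anti-CD36 and 62.3 and 103 FPKM with LPS. None of the 21 tested macrophage identity genes was called. Of the markers of other cell types, those of fibroblasts, epithelium and endothelium were not in the table. The 1 granulocyte, 1 T or NK cell and 2 B cell markers in the table were not called, and their part in the results was not tested. Fscn1, listed for dendritic cells, and Hdc, listed for mast cells, were called higher and are described with the genes of activation.

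Genes of the hypoxia response, such as Ndrg1, Bnip3 and Ero1a, were lower with LPS + anti-CD36 than with LPS, and a smaller set led by Akap12, Mcemp1, Lcn2 and Timp1 was higher. A gene was called where limma, fitted to log2(FPKM + 1) of all 8 libraries, gave a Benjamini-Hochberg adjusted p under 0.05 over all tested genes. By that rule 183 genes were called, 1.78% of those tested. Of these, 37 were higher with LPS + anti-CD36 (0.360%) and 146 were lower (1.42%). The difference reached 1 on the log2 scale in 9 of the 37 and in 28 of the 146. The median difference of all tested genes was -0.02. At an unadjusted p under 0.05, 604 genes were higher and 1401 lower. The ranges of the 2 groups did not overlap in 6599 genes (64.1%), so a gap between 2 libraries and 2 libraries was common among all genes, and it was present in all 183 called.

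How many genes were called depended on which libraries were in the fit. Without LPS + anti-CD36 replicate 1 or 2, 1 and 3 genes were called, and without LPS replicate 1 or 2, 1 gene each. Akap12 was called in all 4 of those fits, and Mcemp1 and Lcn2 were the only others, without LPS + anti-CD36 replicate 2. Without untreated replicate 1 or 2 the fit called 45 and 52 genes. Without anti-CD36 replicate 1 or 2 it called 1427 and 1431, and without that whole group 1441, with all 183 among them. The fit without the whole anti-CD36 group was not planned, and it called 450 genes higher and 991 lower of all 10289. List counts given for it below rest on this larger number of calls, while leaving out either untreated library gave fewer calls. The lists of cytokines, immediate early genes, antigen presentation, glycolysis, fatty acid synthesis and scavenger receptors then lost their calls. Those of hypoxia and interferon-stimulated genes lost most or all, while those of chemokines and survival genes kept theirs. All 183 kept their direction in each of these fits. Every call other than those of Akap12, Mcemp1 and Lcn2 was therefore lost when any 1 of the 4 compared libraries was left out. The range of the difference over those 4 fits is given below for Akap12, Ndrg1 and Ero1a.

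**Figure D1:**
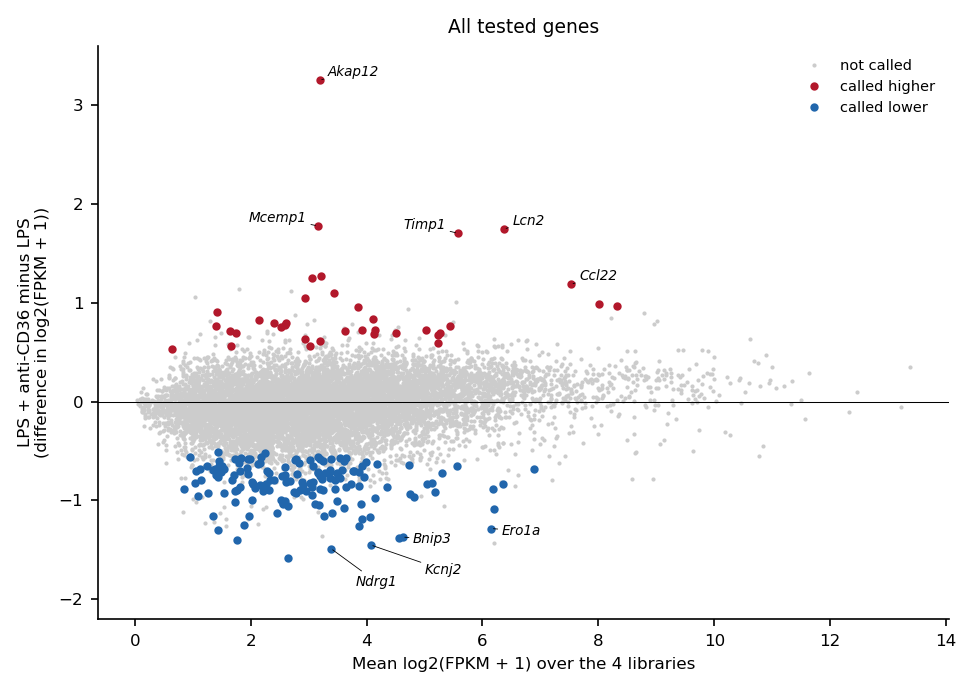
Each point is 1 of the 10289 tested genes, with its mean log2(FPKM + 1) over the 4 compared libraries on the horizontal axis and the difference LPS + anti-CD36 minus LPS on the vertical axis. The 37 genes called higher (red) and 146 called lower (blue) lie on both sides of a median near 0, and Akap12 stands alone at 3.25.

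Of the lists described, the hypoxia response had the most genes that fell. Of 31 tested members of the list, 10 were lower and none was higher at adjusted p under 0.05 (32.3% lower, against 1.42% of all genes). The list's median difference was -0.52, against -0.02 for all genes, and 28 of 31 members were negative. For LPS minus untreated the list's median was also negative, at -0.59. By its median the list was thus not higher with LPS alone than in untreated cells. The 10 were Ndrg1, Bnip3, Ero1a, Bnip3l, Ak4, Adm, Plod2, Gbe1, Pdk1 and Pfkfb3. Without either untreated library 4 members were called lower, without the anti-CD36 group 17 were lower and 1 higher, and without any 1 of the 4 compared libraries 0 were called.

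Ndrg1 (chr15:66929318-66969640, minus strand, GRCm38), a stress-responsive gene induced by hypoxia, was at 5.75 and 4.77 FPKM with LPS + anti-CD36, against 15.4 and 17.7 FPKM with LPS. Both LPS + anti-CD36 libraries were well under both LPS libraries. The log2 difference was -1.49 ± 0.15 (SE, limma adjusted p = 0.0116), and -1.60 to -1.37 with 1 compared library left out. The anti-CD36 libraries were at 46.7 and 36.5 FPKM and the untreated ones at 50.6 and 52.0 FPKM, so the level with LPS + anti-CD36 was the lowest of the 4 groups.

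Bnip3 and Bnip3l encode receptors of the outer mitochondrial membrane that direct mitochondria to autophagy. Bnip3 (chr7:138890836-138909519, minus strand) was at 14.6 and 14.0 FPKM with LPS + anti-CD36, against 32.9 and 45.3 FPKM with LPS (log2 difference -1.37 ± 0.17, limma adjusted p = 0.0197). Its groups did not overlap, and the LPS libraries differed more between themselves than the LPS + anti-CD36 ones. Bnip3l was at 8.87 and 7.95 FPKM with LPS + anti-CD36, against 19.9 and 23.2 FPKM with LPS (-1.26 ± 0.14, adjusted p = 0.0167). In both genes the order of the groups was the same, with means of 14.3 and 8.41 FPKM with LPS + anti-CD36, 39.1 and 21.6 FPKM with LPS, and 134 and 56.4 FPKM in untreated cells. The untreated and LPS + anti-CD36 groups were not compared by a test here.

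Ero1a, the oxidase that passes electrons from protein disulfide isomerase to oxygen in the endoplasmic reticulum, was at 44.2 and 45.1 FPKM with LPS + anti-CD36, against 103 and 118 FPKM with LPS. The LPS level was near that of the anti-CD36 libraries, at 116 and 113 FPKM, and the LPS + anti-CD36 libraries were the lowest of the 8. The log2 difference was -1.28 ± 0.13 (limma adjusted p = 0.0116; -1.38 to -1.19 with 1 compared library left out). Ak4, a mitochondrial adenylate kinase, was at 9.66 and 8.49 FPKM, against 20.3 and 23.7 FPKM with LPS (-1.19 ± 0.20, adjusted p = 0.0395). Adm, the precursor of the vasodilator peptide adrenomedullin, was at 12.7 and 7.99 FPKM, against 26.4 and 21.7 FPKM (-1.17 ± 0.22, adjusted p = 0.0481), with the largest SE of the 10. The groups did not overlap in either gene.

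The other 4 members that fell act in collagen, glycogen and glucose metabolism. Plod2, a lysyl hydroxylase of collagen, was at 1.64 and 2.13 FPKM with LPS + anti-CD36, against 4.19 and 5.36 FPKM with LPS (log2 difference with a 95% confidence interval of -1.35 to -0.64). Gbe1, the glycogen branching enzyme, averaged 2.41 ± 0.248 FPKM with LPS + anti-CD36 and 5.41 ± 0.803 FPKM with LPS (SD, n = 2 each; log2 difference -0.91). Pdk1, the kinase that inhibits pyruvate dehydrogenase, was at 4.65 and 4.75 FPKM, against 9.24 and 10.1 FPKM with LPS (-0.90). Pfkfb3, which makes the phosphofructokinase activator fructose 2,6-bisphosphate, was at 7.54 and 6.38 FPKM, against 11.8 and 13.3 FPKM with LPS (-0.77). Limma adjusted p-values of these 4 were 0.0312, 0.0252, 0.0214 and 0.0396 in that order, and the groups did not overlap in any of them.

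Members that did not pass the test included the regulators of the pathway. Hif1a, the oxygen-sensitive subunit of HIF-1, was at 47.3 and 60.1 FPKM with LPS + anti-CD36, against 71.8 and 75.6 FPKM with LPS (log2 difference -0.46, limma adjusted p = 0.185). Egln1, a prolyl hydroxylase that marks HIF-1 for degradation, was at 4.73 and 4.53 FPKM, against 7.12 and 9.04 FPKM (-0.68, adjusted p = 0.0592). Vegfa, the vascular growth factor, was at 9.80 and 8.80 FPKM, against 11.5 and 13.8 FPKM (-0.41, adjusted p = 0.167). The 3 members with a positive difference were Pfkfb4 (0.33), Car9 (0.04) and Mif (0.01).

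Of the promoters of the members that fell, only those with a match are shown, because the HIF-1 core letters can be read in them directly. RefSeq promoters of GRCm38.p6, 250 bases before to 50 after the start site, were found for 7 of the 10. The letters ACGTG, searched on both strands, were in 19.6% of all 32851 promoters, each counted singly. Counted by gene, with a match in any listed start, they were in 4 of the 7 and in 18 of 27 tested hypoxia genes with a promoter. By the same count they were in 31.4% of 105 genes called lower and 30.9% of 8071 tested genes. Matches are in capitals, and CACGTG counts as 2 overlapping matches, 1 on each strand. A match is a description of the letters and does not show binding. Of several listed starts of Ak4 and Pfkfb3, 1 with CACGTG is shown for each. The other listed starts of Ak4, and the promoters of Adm, Gbe1 and Pdk1, held no match and are not shown. Only ACGTG was searched, so variants of these letters that HIF-1 may also bind were not counted.
Bnip3, chr7:138909457-138909756, minus strand, matches whose first base is at -108 and -107 from the start site: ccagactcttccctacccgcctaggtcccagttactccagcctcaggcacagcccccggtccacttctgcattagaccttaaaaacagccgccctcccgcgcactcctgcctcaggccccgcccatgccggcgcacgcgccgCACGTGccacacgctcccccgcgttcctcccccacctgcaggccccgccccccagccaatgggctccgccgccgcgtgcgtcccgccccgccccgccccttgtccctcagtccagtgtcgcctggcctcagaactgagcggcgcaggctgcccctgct
Ero1a, chr14:45318523-45318822, minus strand, match at -63: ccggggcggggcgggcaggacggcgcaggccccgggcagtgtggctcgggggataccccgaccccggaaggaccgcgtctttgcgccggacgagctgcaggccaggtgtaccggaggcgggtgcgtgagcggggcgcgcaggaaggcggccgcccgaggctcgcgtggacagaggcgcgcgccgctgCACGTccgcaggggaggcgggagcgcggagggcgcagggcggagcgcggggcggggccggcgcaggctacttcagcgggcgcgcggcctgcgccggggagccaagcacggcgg
Ak4, chr4:101419453-101419752, plus strand, matches at -214 and -213: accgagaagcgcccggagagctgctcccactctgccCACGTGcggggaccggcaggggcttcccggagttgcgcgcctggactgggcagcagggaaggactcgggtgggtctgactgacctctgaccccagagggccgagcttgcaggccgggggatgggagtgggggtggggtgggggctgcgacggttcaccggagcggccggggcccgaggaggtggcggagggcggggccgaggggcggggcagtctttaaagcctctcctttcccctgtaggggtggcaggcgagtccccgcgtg
Pfkfb3, chr2:11502041-11502340, minus strand, matches at -53 and -52: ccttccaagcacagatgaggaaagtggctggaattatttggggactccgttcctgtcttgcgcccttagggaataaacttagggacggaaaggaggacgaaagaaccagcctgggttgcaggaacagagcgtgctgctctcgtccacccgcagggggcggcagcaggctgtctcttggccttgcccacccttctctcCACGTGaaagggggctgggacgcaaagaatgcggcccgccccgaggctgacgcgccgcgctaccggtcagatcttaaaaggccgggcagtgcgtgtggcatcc

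Glycolysis genes had small differences of 1 sign and 1 call. The difference was negative in 20 of 20 tested members and the median was -0.37, but Pfkp, the platelet-type phosphofructokinase, was the only member to pass the test. It was at 31.4 and 28.2 FPKM with LPS + anti-CD36, against 47.1 and 52.3 FPKM with LPS (log2 difference -0.72 ± 0.12, limma adjusted p = 0.0382). Its call was lost with median-ratio size factors, under which no member was called. Tpi1, the triose phosphate isomerase, was at 312 and 273 FPKM, against 500 and 505 FPKM (-0.78, adjusted p = 0.111). Ldha, the lactate dehydrogenase subunit, was at 721 and 625 FPKM, against 942 and 955 FPKM (-0.50, adjusted p = 0.399). Both groups kept apart in these 2 genes without passing the test. Without the anti-CD36 group 8 members were called lower. For LPS minus untreated the list's median was -0.48, so by its median this list was also not higher with LPS alone. None of the 7 pentose phosphate genes was called.

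**Figure D2:**
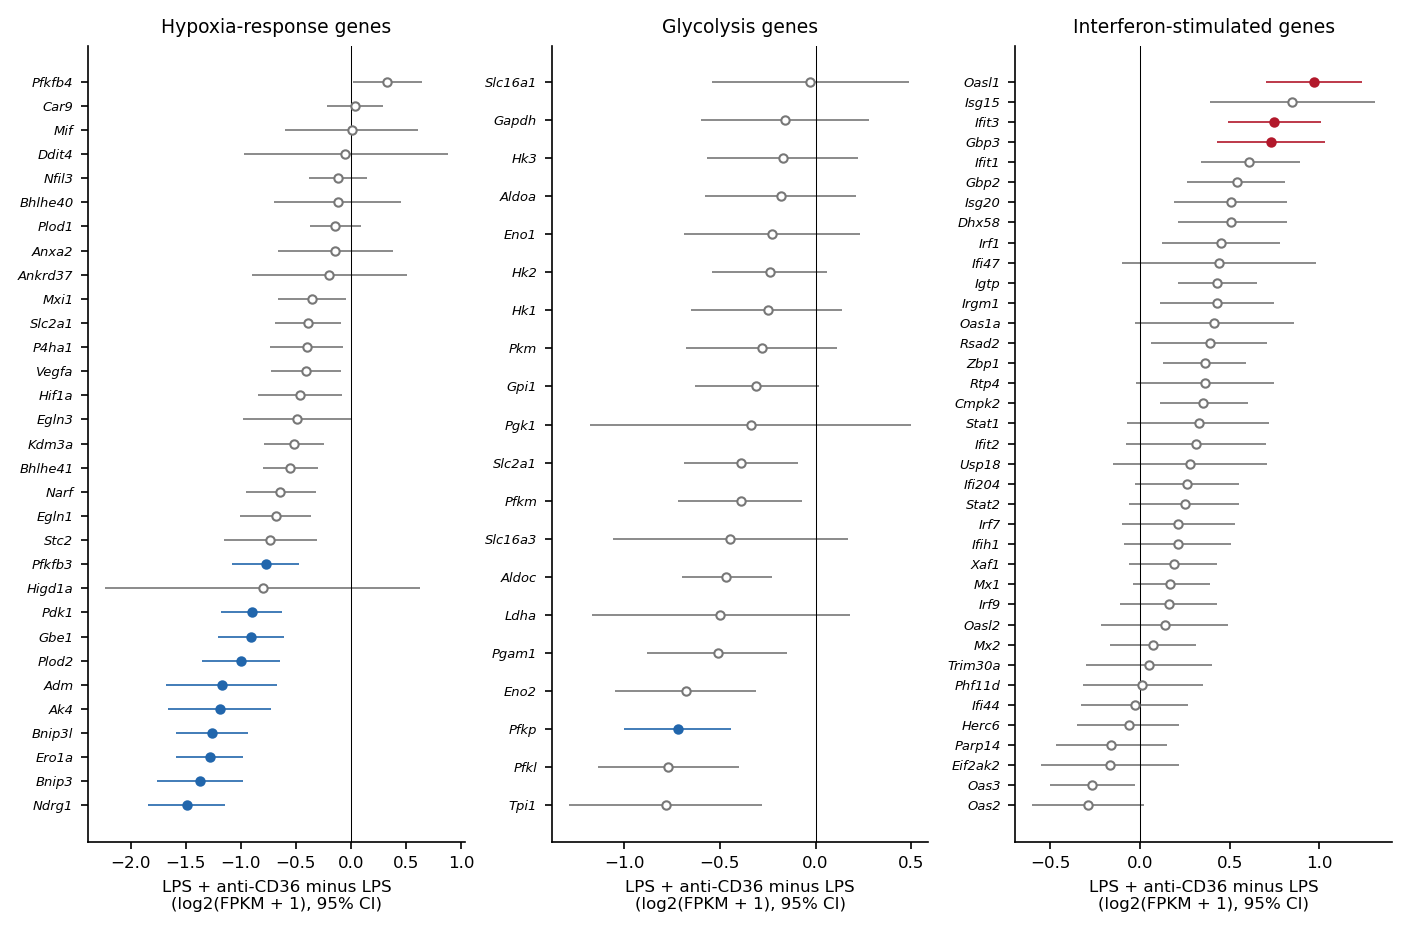
Differences LPS + anti-CD36 minus LPS in log2(FPKM + 1), with 95% confidence intervals from limma, for the tested members of 3 lists. Filled points passed adjusted p under 0.05, and they number 10 lower hypoxia genes, 1 lower glycolysis gene and 3 higher interferon-stimulated genes.

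Akap12, a scaffold that binds protein kinases A and C at the membrane, rose more than any other gene. Akap12 (chr10:4266380-4359470, plus strand, protein-coding) was at 25.7 and 28.8 FPKM with LPS + anti-CD36, against 1.95 and 1.98 FPKM with LPS. With anti-CD36 alone it was at 0.152 and 0.0932 FPKM, and in untreated cells at 0.139 and 0.292 FPKM. The LPS + anti-CD36 libraries were high, the LPS libraries intermediate and the 4 others lowest, at no more than 0.292 FPKM. The log2 difference was 3.25 ± 0.11 (limma adjusted p = 5.03e-05). With 1 compared library left out it was 3.17 to 3.33, with adjusted p-values of 0.00231 to 0.00378. With pseudocounts of 0.1 and 5 in place of 1 it was 3.73 and 2.21, and it was called with both.

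Genes of protein kinase A and cyclic AMP had 3 calls. Of 29 tested, Akap12 and Adora2a rose, Ptger4 fell, and the median was -0.06. Leaving out the anti-CD36 group gave 4 called higher and 4 lower. Adora2a, an adenosine receptor that raises cyclic AMP, averaged 5.96 ± 0.0666 FPKM with LPS + anti-CD36 and 3.02 ± 0.174 FPKM with LPS (SD, n = 2 each; log2 difference 0.79 ± 0.10 SE, limma adjusted p = 0.0197). Ptger4, the prostaglandin E2 receptor EP4, was at 1.19 and 1.36 FPKM, against 2.18 and 2.30 FPKM (-0.51 ± 0.10, adjusted p = 0.0496). The groups of both genes did not overlap. Among the other anchoring proteins, Akap13 was at -0.64 (adjusted p = 0.0954) and Akap1 at 0.21 (0.406).

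Mcemp1, Lcn2 and Timp1 followed Akap12 in size. Mcemp1, a membrane protein of mast cells and myeloid cells, was at 18.2 and 13.1 FPKM with LPS + anti-CD36, against 4.14 and 3.50 FPKM with LPS (log2 difference 1.78 ± 0.16, limma adjusted p = 0.0101). Lcn2 (chr2:32384633-32388252, minus strand), which withholds iron by binding bacterial siderophores, was at 168 and 136 FPKM, against 46.6 and 42.1 FPKM with LPS (1.74 ± 0.13, adjusted p = 0.00879). Timp1 (chrX:20870166-20874735, plus strand), an inhibitor of matrix metalloproteinases, was at 85.8 and 83.7 FPKM, against 26.3 and 24.4 FPKM (1.70 ± 0.15, adjusted p = 0.0101). Each LPS + anti-CD36 library was above each LPS library in all 3 genes. In the 4 libraries without LPS these genes had at most 1.05 FPKM. Without LPS + anti-CD36 replicate 2, Mcemp1 stood at 2.00 and Lcn2 at 1.90 (adjusted p = 0.0286 each).

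Proteases and their inhibitors moved in both directions. Of 14 tested, Timp1, Mmp9 and Serpinb9 rose and Plau fell. Leaving out the anti-CD36 group gave 3 called higher and 2 lower. Mmp9, the gelatinase B, was at 44.6 and 37.2 FPKM with LPS + anti-CD36, against 23.8 and 24.7 FPKM with LPS (log2 difference 0.72 ± 0.13, limma adjusted p = 0.0451). Serpinb9, an inhibitor of granzyme B, was at 2.84 and 3.75 FPKM, against 1.60 and 1.69 FPKM (0.69 ± 0.12, adjusted p = 0.0443). Plau, the urokinase-type plasminogen activator, was at 13.9 and 13.2 FPKM, against 39.0 and 34.9 FPKM (-1.38 ± 0.17, adjusted p = 0.0197). Plau was below its level in untreated cells, 31.2 and 27.9 FPKM, while Mmp9 was below 1 FPKM in every library without LPS. The receptor of urokinase, Plaur, averaged 79.3 ± 2.41 FPKM with LPS + anti-CD36 and 70.3 ± 5.98 FPKM with LPS (SD, n = 2 each) and did not pass the test (log2 difference 0.17, adjusted p = 0.43).

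Cytokines and chemokines had 1 call in each list. Il1a, the alpha form of interleukin-1, was at 322 and 401 FPKM with LPS + anti-CD36, against 182 and 180 FPKM with LPS (log2 difference 0.98 ± 0.14, limma adjusted p = 0.0239), the only call among 15 cytokines, whose median was 0.19. Ccl22, a ligand of CCR4, was at 278 and 277 FPKM, against 124 and 119 FPKM (1.19 ± 0.14, adjusted p = 0.0197), the only call among 10 chemokines, whose median was 0.34. The groups did not overlap in either gene. Tnf averaged 1040 FPKM with LPS + anti-CD36 and 1290 FPKM with LPS (-0.31, adjusted p = 0.346), and Il1b 1190 and 871 FPKM (0.45, adjusted p = 0.0926). Among the cytokines, 6 were called higher and 2 lower without the anti-CD36 group, and among the chemokines 3 were called higher. That unplanned fit called 450 of all 10289 tested genes higher and 991 lower.

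Among 20 antimicrobial and redox effectors, Lcn2 and Ass1 rose. The fit without the anti-CD36 group called 4 higher and 2 lower. Ass1, which regenerates arginine from citrulline, was at 7.52 and 6.35 FPKM with LPS + anti-CD36, against 4.23 and 3.10 FPKM with LPS (log2 difference 0.77 ± 0.14, limma adjusted p = 0.0451). Nos2, the inducible nitric oxide synthase that uses arginine, averaged 59.7 FPKM with LPS + anti-CD36 and 105 FPKM with LPS and did not pass (-0.81, adjusted p = 0.0659). Its anti-CD36 minus untreated difference was -0.90. Acod1, which makes itaconate, was at 0.19 (adjusted p = 0.575).

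A co-stimulatory ligand, an actin-bundling protein and an enzyme listed for immune cells rose. Cd80, a ligand of CD28 and CTLA-4, was at 27.0 and 28.5 FPKM with LPS + anti-CD36, against 17.0 and 16.6 FPKM with LPS (log2 difference 0.69 ± 0.12, limma adjusted p = 0.0399). Fscn1, an actin-bundling protein of mature dendritic cells, was at 2.82 and 2.90 FPKM, against 1.54 and 1.69 FPKM (0.56 ± 0.09, adjusted p = 0.0312). Hdc, which makes histamine, was at 46.3 and 46.6 FPKM, against 30.4 and 27.3 FPKM (0.67 ± 0.10, adjusted p = 0.0336). Cd80 and Fscn1 were the 2 calls among 18 genes of antigen presentation and co-stimulation, whose median was 0.18. Of the 18, 4 were called higher and 2 lower without the anti-CD36 group. The summed dendritic markers in the table, Zbtb46 and Fscn1, were 3.62 to 3.69 FPKM with LPS + anti-CD36 and 2.12 to 2.41 FPKM with LPS, and the part of such cells in the results was not tested. In bulk RNA, more cells of a type and more RNA per cell cannot be told apart.

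The remaining large rises were a mixed group. Vgf, a secreted neuropeptide precursor, was at 14.5 and 12.4 FPKM with LPS + anti-CD36, against 5.07 and 4.93 FPKM with LPS (log2 difference 1.26, limma adjusted p = 0.0101). Cd300e, an activating receptor of myeloid cells, was at 15.1 and 14.5 FPKM, against 6.08 and 6.70 FPKM (1.10, adjusted p = 0.0117). Procr, the endothelial protein C receptor, was at 19.7 and 18.6 FPKM, against 9.07 and 9.76 FPKM (0.95, adjusted p = 0.0218). The replicates of each of these genes lay close together and the groups did not overlap. Serpinb6b, an intracellular protease inhibitor (1.05), Lsp1, an actin-binding protein of leukocytes (0.83), and Nes, the intermediate filament nestin (0.80), also rose, with adjusted p-values of 0.0116, 0.044 and 0.039.

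**Figure D3:**
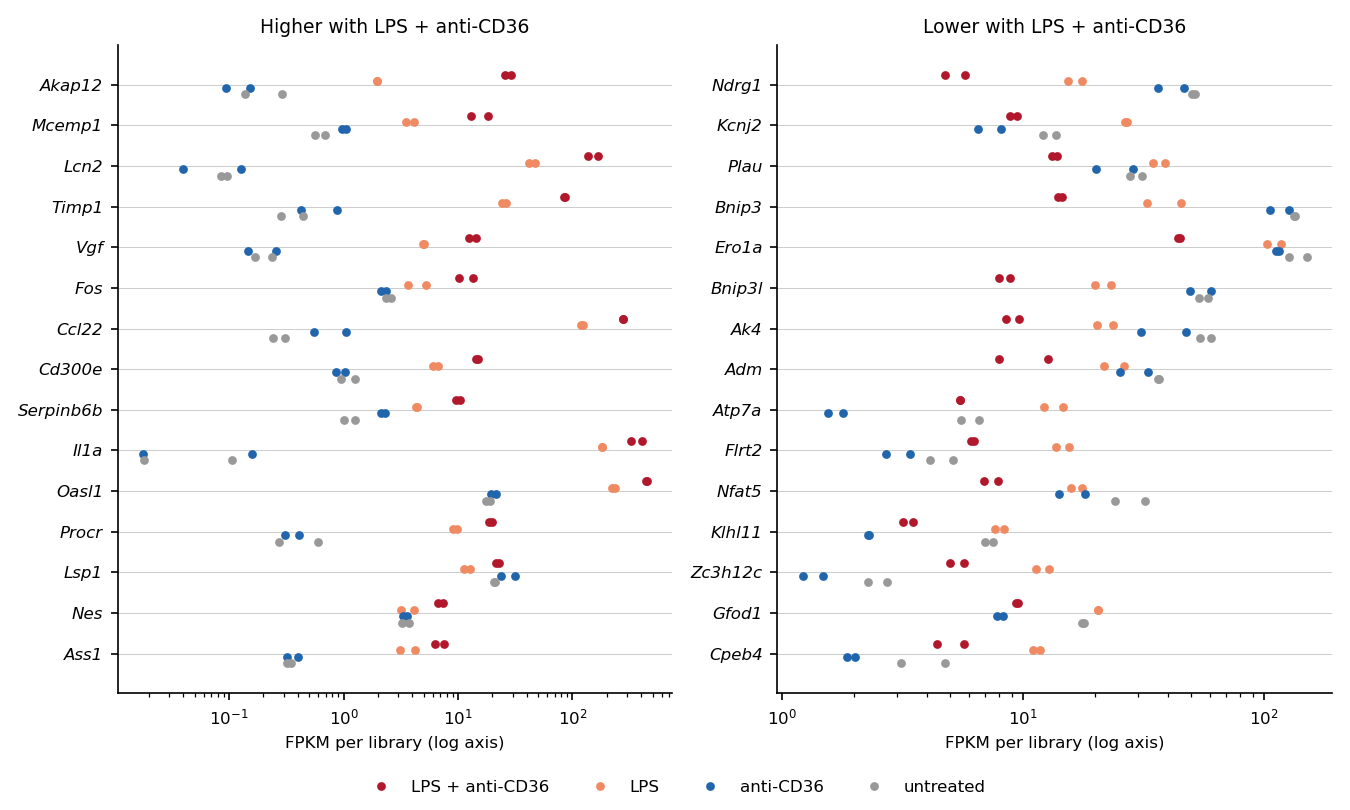
FPKM in each library (log axis) for the 15 largest rises and the 15 largest falls among called genes with a mean of at least 5 FPKM over the 4 compared libraries, in rows of LPS + anti-CD36 (red), LPS (orange), anti-CD36 (blue) and untreated (grey). The 2 red points lie apart from the 2 orange points in every row, from Akap12 (3.25) to Ndrg1 (-1.49).

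Interferon-stimulated genes had mostly small positive differences and 3 calls. Of 37 tested, 3 rose and none fell (8.11% higher, against 0.360% of all genes), 31 were positive, and the median was 0.31, against -0.02 for all genes. Oasl1, a protein of the oligoadenylate synthetase family, was at 449 and 442 FPKM with LPS + anti-CD36, against 221 and 234 FPKM with LPS (log2 difference 0.97 ± 0.12, limma adjusted p = 0.0197). Ifit3, an antiviral RNA-binding family member with near-identical copies, was at 6.49 and 6.47 FPKM, against 3.65 and 3.26 FPKM (0.75 ± 0.11, adjusted p = 0.0291), and its value is uncertain for that reason. Gbp3, a guanylate-binding protein, was at 20.5 and 23.3 FPKM, against 14.2 and 11.5 FPKM (0.73 ± 0.13, adjusted p = 0.0443). The groups did not overlap in these 3. Isg15, a ubiquitin-like modifier, averaged 400 FPKM with LPS + anti-CD36 and 221 FPKM with LPS without passing (0.85, adjusted p = 0.0785), and Oas2 was the lowest member at -0.29. Without the anti-CD36 group 13 members were called higher, and with 1 compared library left out none.

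The promoters of Ifit3 and Gbp3 are shown for the letters bound by interferon regulatory factors and STAT complexes, GAAA followed by any 2 bases and again GAAA, searched on both strands and given in capitals. These letters were in 2 of the 3 promoter sets of the members that rose, in 14 of 27 tested interferon-stimulated genes with a promoter, in 3.8% of 8071 tested genes and in 3.44% of all promoters. The matches of Gbp3 overlap each other. Its other listed start and the promoter of Oasl1 held no match and are not shown. Sequences are from RefSeq, GRCm38.p6.
Ifit3, chr19:34583279-34583578, plus strand, matches at -156 and -122: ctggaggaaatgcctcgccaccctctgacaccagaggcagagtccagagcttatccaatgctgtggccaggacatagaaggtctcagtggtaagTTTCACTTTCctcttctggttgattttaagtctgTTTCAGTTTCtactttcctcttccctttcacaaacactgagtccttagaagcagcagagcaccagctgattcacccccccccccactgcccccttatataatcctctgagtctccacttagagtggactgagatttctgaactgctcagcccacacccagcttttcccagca
Gbp3, chr3:142559794-142560093, plus strand, matches at -45 and -39: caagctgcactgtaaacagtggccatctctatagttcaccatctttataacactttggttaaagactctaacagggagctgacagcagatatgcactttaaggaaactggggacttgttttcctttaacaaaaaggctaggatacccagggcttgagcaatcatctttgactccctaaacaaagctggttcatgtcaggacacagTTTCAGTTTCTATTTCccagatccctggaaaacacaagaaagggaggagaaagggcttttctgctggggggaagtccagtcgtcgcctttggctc

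Genes of the early response went both ways. Of 29 immediate early genes, Fos, Klf2 and Batf rose, and Egr3, Myc, Klf6 and Dusp4 fell, with a median of -0.14. The fit without the anti-CD36 group called 4 higher and 9 lower. Fos, a subunit of AP-1, was at 13.6 and 10.3 FPKM with LPS + anti-CD36, against 3.65 and 5.29 FPKM with LPS (log2 difference 1.25 ± 0.18, limma adjusted p = 0.0255). Klf2, a factor that restrains inflammatory genes, was at 2.94 and 2.37 FPKM, against 0.855 and 1.05 FPKM, and at 6.97 and 6.98 FPKM in untreated cells (0.90 ± 0.12, adjusted p = 0.0214). The LPS + anti-CD36 libraries lay between the LPS and untreated ones for Klf2 and above all others for Fos. Batf, an AP-1 family member, was at 8.97 and 8.69 FPKM, against 5.76 and 5.61 FPKM (0.56, adjusted p = 0.0395). AP-1 letters, TGANTCA on both strands, were in the promoters of 6 of 32 genes called higher and of 5.8% of tested genes. They were also in 10 of 105 genes called lower (9.52%). In the same 32, NF-kB letters were in 0 (0.52% of tested genes) and those of the cyclic AMP response element in 1 (3.79%). The interferon letters given above were in 4 (3.8%) and the HIF-1 core letters in 6 (30.9%). The part of AP-1 in the rises was not tested, and a match does not show binding.

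Among those that fell, Myc, a factor of growth and metabolism, was at 2.36 and 1.91 FPKM with LPS + anti-CD36, against 3.84 and 5.78 FPKM with LPS (log2 difference -0.87 ± 0.16, limma adjusted p = 0.0489). Egr3, a zinc finger factor, was at 0.687 and 0.793 FPKM, against 2.10 and 2.51 FPKM (-0.92 ± 0.15, adjusted p = 0.039). The groups did not overlap, and Myc was at 0.132 FPKM or less in the libraries without LPS. Of 23 genes of NF-kB and its feedback, Rel and Cflar fell and none rose, with a median of 0.08. Without the anti-CD36 group 4 were called higher and 4 lower, and with a pseudocount of 5, 1 was called higher and 2 lower. Rel, the c-Rel subunit, was at 21.8 and 25.4 FPKM, against 42.9 and 42.9 FPKM (-0.84 ± 0.14, adjusted p = 0.0399). Cflar, an inhibitor of caspase-8, was at 17.7 and 19.3 FPKM, against 35.5 and 36.9 FPKM (-0.93 ± 0.12, adjusted p = 0.0214), and was also lower with anti-CD36 than in untreated cells (-0.77, adjusted p = 0.0156). The inhibitor Nfkbia was at -0.09 (0.827).

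The remaining large falls were a mixed group. Kcnj2, an inward-rectifier potassium channel, was at 8.88 and 9.50 FPKM with LPS + anti-CD36, against 27.2 and 26.5 FPKM with LPS (log2 difference -1.45 ± 0.13, limma adjusted p = 0.0101). Atp7a, the copper exporter, was at 5.49 and 5.47 FPKM, against 12.3 and 14.7 FPKM (-1.15 ± 0.13, adjusted p = 0.0167). Nfat5, the transcription factor of osmotic stress, was at 6.94 and 7.92 FPKM, against 15.9 and 17.7 FPKM (-1.08 ± 0.18, adjusted p = 0.0379). In each, the higher LPS + anti-CD36 library was well below the lower LPS library. Flrt2, a leucine-rich adhesion protein (-1.13), Klhl11, an adaptor of ubiquitin ligases (-1.06), Zc3h12c, a zinc finger RNase (-1.05), Gfod1, an oxidoreductase-domain protein (-1.04), and Cpeb4, a regulator of poly(A) tails (-1.04), fell too, with adjusted p-values of 0.0101 to 0.0397.

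Single members fell in several other lists. Scd2, a fatty acid desaturase, was at 59.2 and 61.6 FPKM with LPS + anti-CD36, against 98.5 and 120 FPKM with LPS (log2 difference -0.84 ± 0.15, limma adjusted p = 0.046), the only call among 17 genes of fatty acid synthesis. Plk2, a p53-inducible kinase, was at 25.9 and 24.7 FPKM, against 42.5 and 48.7 FPKM (-0.82, adjusted p = 0.0252). Acp5, the tartrate-resistant phosphatase of osteoclasts, was at 2.87 and 2.17 FPKM, against 4.68 and 4.19 FPKM (-0.63, adjusted p = 0.0481), while Mmp9 of the same list rose. The groups were apart in each. Plk2 was the only call among 22 p53 targets and Cflar among 15 survival genes. Of 20 genes of metal and iron handling, Lcn2 rose and Atp7a fell, and of 4 genes of alternative activation Ccl22 rose. Lpl, the lipoprotein lipase, averaged 69.6 FPKM with LPS + anti-CD36 and 126 FPKM with LPS and did not pass (-0.86, adjusted p = 0.0523), and none of the 21 genes of PPAR and LXR lipid handling did. Without the anti-CD36 group 6 of those 21 were called lower.

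No member was called in the lists of TLR signalling (28 tested), Fc receptors and phagocytosis (18), NRF2 targets (18), the integrated stress and unfolded protein responses (31), the inflammasome (15), cholesterol synthesis (26), lysosome (27), autophagy (22), the respiratory chain (27), mitochondrial transcripts (13), ribosomal proteins (30), heat shock (14), integrins (21), mitosis (26) and DNA replication (31). A miss does not show that these genes were equal. Without the anti-CD36 group, 7 genes of the stress responses were called lower and 2 higher, and 4 of autophagy were called lower. That fit called 991 of all 10289 tested genes lower and 450 higher. Hspa8, a constitutive chaperone, was at 640 and 675 FPKM with LPS + anti-CD36, against 398 and 363 FPKM with LPS, and did not pass (log2 difference 0.79, limma adjusted p = 0.0939). Casp8, the initiator caspase that Cflar inhibits, averaged 31.7 FPKM with LPS + anti-CD36 and 22.5 FPKM with LPS (0.48, adjusted p = 0.0659).

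The antibody's own target and the LPS receptor were measured in all groups. Cd36 (chr5:17781690-17888801, minus strand) was at 7.98 and 9.08 FPKM with LPS + anti-CD36, against 4.71 and 5.57 FPKM with LPS. The anti-CD36 libraries were at 0.169 and 0.223 FPKM and the untreated ones at 0.0400 and 0.117 FPKM, so the transcript was low without LPS. The difference of 0.64 ± 0.11 had a limma adjusted p of 0.0449, close to the threshold, and Cd36 was the only call among 7 scavenger receptors. Tlr4 was at 2.09 and 2.38 FPKM, against 2.70 and 3.68 FPKM with LPS (-0.36, 95% confidence interval -0.71 to -0.02, adjusted p = 0.231). Its co-receptor Cd14 averaged 1980 FPKM with LPS + anti-CD36 and 1510 FPKM with LPS (0.39, adjusted p = 0.341).

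The antibody difference without LPS, anti-CD36 minus untreated, comes from 4 other libraries and shares none with the comparison described here. Both sets of calls used 1 estimate of each gene's spread over all 8 libraries, so the calls are not independent. In it 313 of 10289 genes were called higher (3.04%) and 1092 lower (10.6%). Of the 146 genes that fell with LPS + anti-CD36, 83 were also called lower without LPS (56.8% of the 146, 7.60% of the 1092), and 138 were negative. Of the 37 that rose, 3 were also called higher (8.11% of the 37, 0.958% of the 313) and none was called lower. Those 3 were Serpinb6b, Rpp38 and Apip. Of the genes that rose, Akap12, Lcn2 and Il1a had at most 0.292, 0.127 and 0.159 FPKM in the libraries without LPS. At such values log2(FPKM + 1) leaves little room for a difference. Others, such as Lsp1, at 20.5 to 31.4 FPKM, were not low there. The 8.11% and the 56.8% are therefore not directly comparable. The share of negative values among all tested genes was 59.5%, and the median was -0.08.

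The falls thus held 2 sets by their values without LPS. The 83 that were also called lower had a median difference of -0.76 with LPS and -0.74 without, and included Kcnj2 (-0.74 without LPS), Klhl11 (-1.32), Gfod1 (-1.06) and Atp7a (-1.40). The 62 that were called in neither direction without LPS had medians of -0.88 with LPS and -0.29 without. These held 9 of the 10 hypoxia genes, the exception being Pfkfb3. Prelid2 was the 1 gene that fell with LPS (-0.85) and was called higher without it (0.60). The sets were made from the measured values, and the difference between them was not tested.

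**Figure D4:**
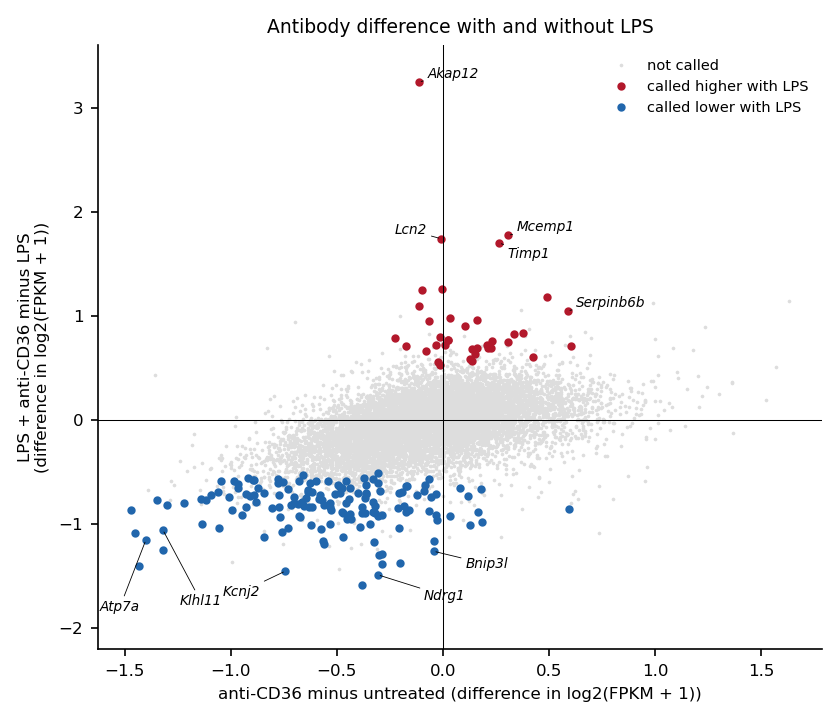
Each point is a tested gene, with anti-CD36 minus untreated on the horizontal axis and LPS + anti-CD36 minus LPS on the vertical axis, both as differences in log2(FPKM + 1) from separate libraries. Genes called lower with LPS (blue) lie mostly left of 0, with 138 of 146 negative, and genes called higher (red) lie on both sides, with 24 of 37 positive.

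The test of the difference between the antibody effects, LPS + anti-CD36 minus LPS less anti-CD36 minus untreated, called 1 of 10289 genes (0.00972%). That gene was Akap12, at 3.36 ± 0.15 (limma adjusted p = 0.000507). Its call was lost with a pseudocount of 0.1, at 4.20 (adjusted p = 0.0547), and with a pseudocount of 5 it was at 2.23 (adjusted p = 0.000154). An unadjusted p under 0.05 was reached by 1396 genes, Akap12 included. Lcn2 was at 1.75 (adjusted p = 0.0984), Mcemp1 at 1.47 (0.19) and Timp1 at 1.44 (0.19). Bnip3l, at -1.22 (0.19), Ndrg1, at -1.18 (0.208), and Bnip3, at -1.17 (0.21), were among the lowest hypoxia genes and were not called. Higd1a, a hypoxia-induced mitochondrial protein, was the lowest at -1.40 (0.509). For these genes a difference between the antibody effects with and without LPS was therefore not shown. The median interaction was -0.26 over the hypoxia list, 0.14 over the interferon-stimulated list and 0.06 over all genes. The test rests on the anti-CD36 libraries, and without replicate 1 or replicate 2 of that group it called 615 and 237 genes.

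Transcript length moved with the difference. Across 10034 genes with a length in GENCODE, the Spearman correlation of the difference with the summed exon length was -0.476 for LPS + anti-CD36 minus LPS and -0.445 for anti-CD36 minus untreated, a description over genes that share their libraries. Replicates of 1 group also differed with length. The correlation for replicate 1 minus 2 was -0.286 for LPS + anti-CD36, -0.248 for LPS, 0.328 for anti-CD36 and -0.483 for untreated cells. A correlation as strong as that between groups was thus present between the 2 untreated libraries, and those within the other groups were weaker. These coefficients rest on ranks and do not give the size of a trend. The median exon length was 2608 bp in genes that rose, 5935 bp in genes that fell and 4335 bp in all tested genes. Of the 83 genes that were also lower without LPS it was 7526 bp, and of the 62 others 4406 bp. With the genes in 10 equal bins of length, the longest bin held 37 falls and no rise, with a median difference of -0.26. The shortest bin held 10 falls and 7 rises, with a median of 0.14.

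Removing the length trend from each library left 138 called genes, 35 higher and 103 lower, and a correlation of -0.014. Of the 81 genes with a length that were also lower without LPS, 39 were still called, and of the 59 others 45. Of the 9 hypoxia genes with a length that had been called, 7 were, at a median of -1.16, and 8 members of the list were called in all. Of the 37 genes that rose, 24 were still called. Akap12 stayed at 3.28 in the interaction test, and Timp1 was then called there too (1.51, limma adjusted p = 0.0379). The removal was chosen after the data were seen.

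**Figure D5:**
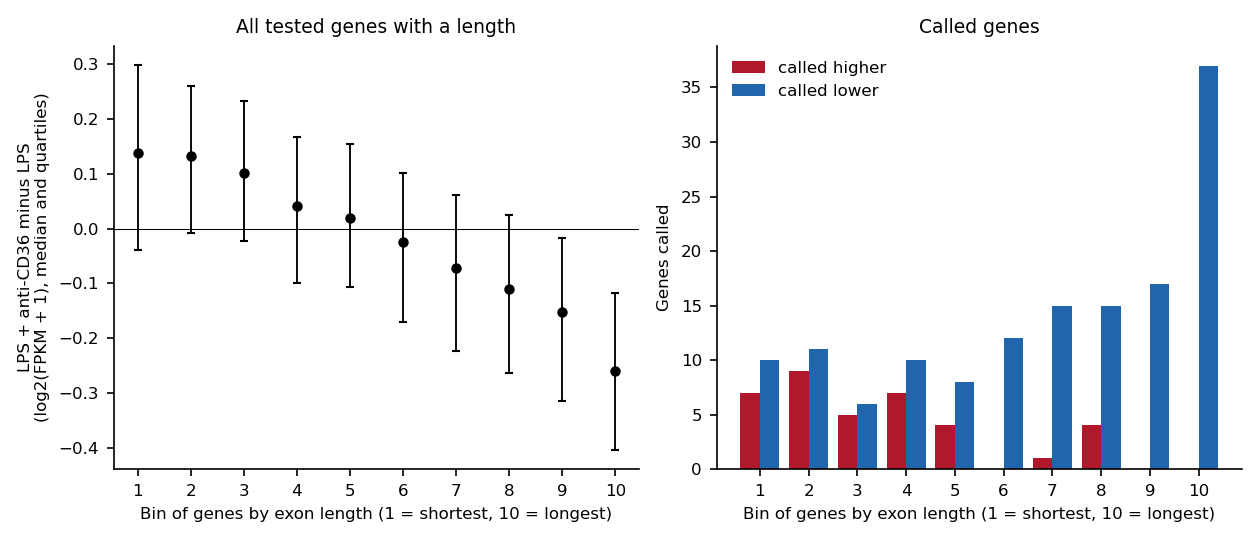
Tested genes in 10 equal bins of summed exon length, shortest at left. The left panel gives the median and quartiles of LPS + anti-CD36 minus LPS in log2(FPKM + 1), which run from 0.14 in the shortest bin to -0.26 in the longest, and the right panel counts genes called higher (red) and lower (blue), with 37 of the falls in the longest bin.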

How the data were processed

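RNA was measured in 8 libraries of RAW264.7 cells, in 4 groups of 2 taken from the labels. The authors deposited 1 table of FPKM values per gene and library. Listed in the submitters' processing notes are mm10, hg38 and HISAT2 (version 2.0.5). What hg38 was used for, the counting tool, its strand setting and how multi-mapped reads were handled are not given in the sources used here, so genes with near-identical copies or overlapping neighbours are uncertain. Trizol extraction and Illumina libraries are stated per the labels' protocols, which also name 10x Genomics, but the table has 1 value per gene and library and was treated as bulk. No value was 0 in the table, and no value column was unused. Depth was recovered from 99 short RNAs, of which 69 to 73 per library gave whole reads within 0.02. All other genes were used as FPKM.

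Genes with FPKM of at least 1 in at least 2 of 8 libraries were fitted as log2(FPKM + 1), a scale that understates changes of low genes, with limma 3.58.1 in R 4.3.3 (4 group means, empirical Bayes with trend, 4 residual and 3.46 prior degrees of freedom). Benjamini-Hochberg adjustment ran over all 10289 tested genes. The steps were tested on simulated data. Differences are LPS + anti-CD36 minus LPS. Lists are described by counts and medians, with no list test. The genes named were the 15 largest rises and falls among called genes with separate ranges and a mean FPKM of at least 5, without predicted genes; Cd36 and Tlr4; and up to 4 called members of each list, or its most changed member. Other members given with values, and genes in the closing observations, were chosen after their values were seen. The members and the 44 gene lists were chosen with earlier results of these data known. Coordinates and exon lengths are from GENCODE on GRCm38, matched by symbol for 10034 genes. Alternatives were other pseudocounts, filters, scalings, spread models, replicate blocks, a length correction and leaving out each library.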

Additional observations from a re-analysis of the deposited data

Results flagged for a closer look

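Akap12 was picked out because its antibody difference was unlike in cells with and without LPS by a test of the difference itself. The log2 difference with LPS minus that without LPS was 3.36 ± 0.15 (limma adjusted p = 0.000507), from 3.25 for LPS + anti-CD36 minus LPS and -0.11 for anti-CD36 minus untreated. The value depended on the pseudocount. With 0.1 in place of 1 it was 4.20 and no longer called (adjusted p = 0.0547), and with 5 it was 2.23 (adjusted p = 0.000154). Both LPS + anti-CD36 libraries, at 25.7 and 28.8 FPKM, were above the 6 others, of which the highest had 1.98 FPKM.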

How the results depend on the processing

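All 183 calls kept their direction under each alternative in which the gene was present. Against 183 called genes (37 higher, 146 lower) and 1 interaction, a pseudocount of 0.1 gave 18 higher and 0 interactions (Akap12 at 4.20), a pseudocount of 5 gave 63 and 6, and a mean FPKM of at least 5 gave 88 (17 higher, 71 lower). Leaving out mitochondrial genes gave 121 (17 higher), which moved the median of all genes to -0.09, and asking for a difference of at least 1 gave 37. Quantile normalization gave 49 higher and 100 lower, and size factors 55 higher and 132 lower. A fit on only the 4 compared libraries gave 2307 (830 higher, 1477 lower), and an unplanned fit without the anti-CD36 group 1441 (450 higher, 991 lower). With 1 library left out, in a fit where the lone library of a group is assumed to vary like the others, the calls ran from 1 to 1431, those higher from 1 to 447, those lower from 0 to 985 and interactions from 1 to 615. The causes were not tested. Same-numbered LPS + anti-CD36 and LPS libraries deviated together at a correlation of 0.005, which cannot show whether they were prepared as pairs. The labels do not say, and a replicate block gave 46 (10 higher, 36 lower) and 1 interaction. Anti-CD36 and untreated libraries deviated at -0.645, and a block with the anti-CD36 numbers crossed, added after seeing the data, gave 325 (59 higher, 266 lower). Removing the length trend gave 2 interactions. Reversed values, none of them called, were the immediate early median at 0.01 (mean FPKM of at least 5), Lck at 0.07 (quantile) and 0.01 (size factors), and Cd79b at -0.07 and -0.02 (without replicate 1 of LPS + anti-CD36 or of LPS; -0.07 to 0.33 with 1 library left out) and -0.01 (length). Genes near the floor are limited by depth.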

Other observations

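Some called genes outside the lists and the naming rule may be of interest, and they were chosen after their values were seen. Lta, the cytokine lymphotoxin alpha, was at 57.1 and 54.5 FPKM with LPS + anti-CD36, against 31.0 and 33.9 FPKM with LPS (log2 difference 0.76, limma adjusted p = 0.0274). Upp1, which splits uridine, was at 53.2 and 42.9 FPKM, against 28.6 and 29.7 FPKM (0.70). Sqor, which oxidizes hydrogen sulfide in mitochondria, was at 22.5 and 19.9 FPKM, against 12.4 and 13.3 FPKM (0.68).

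Among the falls, Pgm1, which interconverts glucose phosphates between glycogen and glycolysis, was at 20.1 and 18.6 FPKM with LPS + anti-CD36, against 35.2 and 42.3 FPKM with LPS (-0.96). Il13ra1, a receptor subunit for interleukins 4 and 13, was at 6.46 and 7.47 FPKM, against 15.2 and 14.8 FPKM (-1.01). Arrb1, beta-arrestin 1, was at 2.82 and 2.60 FPKM, against 6.44 and 7.79 FPKM (-1.13). Rgs1, which shortens G protein signals, was at 11.2 and 12.2 FPKM, against 25.9 and 22.2 FPKM (-0.98). The groups did not overlap in any of these 7 genes.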
